A study of Mus musculus with 16 samples.

Results

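Microglia sense extracellular nucleotides through purinergic receptors and degrade them with enzymes on the cell surface. Genes of this system were followed here: the ADP receptors P2ry12 and P2ry13, the UDP receptor P2ry6, the UDP-sugar receptor P2ry14, the ATP-gated channels P2rx4 and P2rx7, the ectonucleotidase Entpd1 and the adenosine receptors Adora1, Adora2a and Adora3. The genes were taken by symbol from the expression table, in which 9 of these 10 were measured among 17951 genes. Adora2a is not analysed here. The RNA, sequenced as 16 libraries, came from Cd11b+ Cd45+ microglia that were isolated from mouse brain after an injection of Methoxy-X04 (Me-X04), a dye that crosses into the brain and binds amyloid. All mice received the dye. The groups were 7 libraries of WT microglia, 5 of Me-X04- microglia from 5xFAD transgenic (TG) mice and 4 of Me-X04+ microglia, the cells that carried stained amyloid, from TG mice. In the 5xFAD line the transgenes are driven by the neuronal Thy1 promoter. Libraries of TG mice with 1 number, Me-X04- and Me-X04+, share an animal label. The labels gave an age of 2 months for WT and 6 months for TG mice, so by the labels age and genotype cannot be told apart in a comparison with WT, while the study's methods give other ages.

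ATP released by stressed or dying cells opens P2X channels and activates P2Y receptors on microglia. Entpd1 (CD39) and other ectonucleotidases cut ATP to ADP and AMP, further enzymes make adenosine from AMP, and adenosine acts on receptors of its own. In microglia, P2ry12 is a marker of the resting state and steers cell processes toward ADP, P2ry6 is linked to phagocytosis, and P2rx7 is linked to the inflammasome. P2ry12, P2ry13, P2ry14, Adora1 and Adora3 couple mainly to inhibitory G proteins.

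Promoter windows of 300 bases around the annotated starts were available for 8 of the members, as 14 windows (RefSeq, GRCm38.p6). The windows of Adora1, P2rx4, P2ry12 and P2ry13 are shown because these genes include both members that were higher and 2 of the members that were lower in TG Me-X04+ than in WT microglia. They are written 5′ to 3′ on the strand of the gene. The Adora1 window is chr1:134235408-134235707 (minus strand), the P2rx4 window chr5:122707294-122707593 (plus strand), the P2ry12 window chr3:59262936-59263235 (minus strand) and the P2ry13 window chr3:59210833-59211132 (minus strand). Capitals mark matches, on either strand, to the PU.1 core GAGGAA, the AP-1 site TGANTCA or the MiT/TFE E-box TCACGTG, which do not overlap each other in these windows.
Adora1: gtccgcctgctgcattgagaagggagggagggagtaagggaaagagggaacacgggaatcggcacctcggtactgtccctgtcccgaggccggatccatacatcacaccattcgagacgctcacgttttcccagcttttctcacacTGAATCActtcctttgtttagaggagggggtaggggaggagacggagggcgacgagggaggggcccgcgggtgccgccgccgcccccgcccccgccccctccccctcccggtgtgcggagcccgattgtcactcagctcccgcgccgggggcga
P2rx4: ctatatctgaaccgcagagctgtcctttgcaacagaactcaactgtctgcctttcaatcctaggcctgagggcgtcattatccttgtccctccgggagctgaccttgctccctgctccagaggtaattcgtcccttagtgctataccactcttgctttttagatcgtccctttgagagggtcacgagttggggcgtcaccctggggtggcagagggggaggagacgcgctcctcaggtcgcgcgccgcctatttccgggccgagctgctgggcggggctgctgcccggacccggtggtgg
P2ry12: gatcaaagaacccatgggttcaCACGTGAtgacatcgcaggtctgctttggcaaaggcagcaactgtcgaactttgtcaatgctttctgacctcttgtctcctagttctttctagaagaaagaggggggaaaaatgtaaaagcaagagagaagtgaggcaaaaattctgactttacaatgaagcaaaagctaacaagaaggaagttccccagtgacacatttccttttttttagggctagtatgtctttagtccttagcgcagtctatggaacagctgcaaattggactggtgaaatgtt
P2ry13: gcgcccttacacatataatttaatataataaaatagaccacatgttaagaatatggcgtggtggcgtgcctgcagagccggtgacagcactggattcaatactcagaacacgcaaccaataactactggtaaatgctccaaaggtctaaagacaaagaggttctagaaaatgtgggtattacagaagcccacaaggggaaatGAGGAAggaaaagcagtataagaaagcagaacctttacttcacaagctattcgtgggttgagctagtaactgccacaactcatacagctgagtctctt

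Counted from 1 at the first base of the window, the Adora1 window held an AP-1 match at position 147, the P2ry12 window an E-box match at position 23 and the P2ry13 window a PU.1 match at position 203. The P2rx4 window and the second Adora1 window held none of these 3 motifs. Over all 14 windows, 9 windows of 5 members held the PU.1 core, 5 windows of 4 members the AP-1 site and 1 window the E-box. The windows of P2rx7 and Adora3, also lower in TG Me-X04+ than in WT microglia, are not shown. The Adora3 window and a P2rx7 window each held an AP-1 match and a PU.1 match. Among all 32851 windows of the reference, 28.3% held the PU.1 core, 7.81% the AP-1 site and 3.77% the E-box. Windows of 1 gene can overlap, and a match is a string of letters and not a binding site. The AP-1 pattern allowed any middle base, and its match in the Adora1 window reads TGAATCA.

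The levels were compared per gene length, as log2 RPKM (reads per kilobase of gene, relative to library sizes that the authors had scaled, with a small prior added to the reads). Depth over the 17951 genes was 15623664 to 22119327 reads for WT libraries, 17216633 to 25184600 for TG Me-X04- and 22430251 to 27579017 for TG Me-X04+. The sorted cells carried microglial RNA, with all 10 microglial markers detected and their summed level at 4240 to 6290 RPKM in WT, 4020 to 7200 in TG Me-X04- and 5300 to 7900 in TG Me-X04+ libraries. The libraries fell into 2 sets. The sets separated on the first principal component, with 37.8% of the variance, once each group's mean had been subtracted. Set A had 7 libraries (WT 1, 2 and 3, and replicates 1 and 2 of both TG groups) and set B had the other 9, and what the sets are was not given in the sources used here. The study's methods name HiSeq and NextSeq sequencers without saying which library ran on which. Each set held 2 to 4 libraries of each group. Separation of groups within a set is given below without a share of all genes. Genes were called differentially expressed (DE) where limma's moderated two-sided test gave an adjusted p below 0.05 (Benjamini-Hochberg, adjusted across the 17951 genes) and the log2 fold change (log2FC) was 0.7 or more in either direction.

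In WT microglia the members spanned nearly the whole range of expression. P2ry12 led with a mean of 10.46 log2 RPKM, rank 31 of all genes, followed by P2ry13 at 8.96 (rank 49) and Entpd1 at 7.29 (rank 125). P2ry6 stood at 6.46 (rank 219), P2rx7 at 5.16 (rank 667), Adora3 at 4.11 (rank 1750) and P2rx4 at 2.70 (rank 5147). Adora1 at -3.41 and P2ry14 at -5.02 were near the bottom of the table, at ranks 17440 and 17887. Neighbours in this order did not overlap in their WT values, except Adora1 and P2ry14. In TG Me-X04+ microglia the order of means was the same down to P2rx7, but P2rx4 (3.49) stood above Adora3 (2.94), and Adora1 had moved to rank 7237 of all genes.

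**Figure D1:**
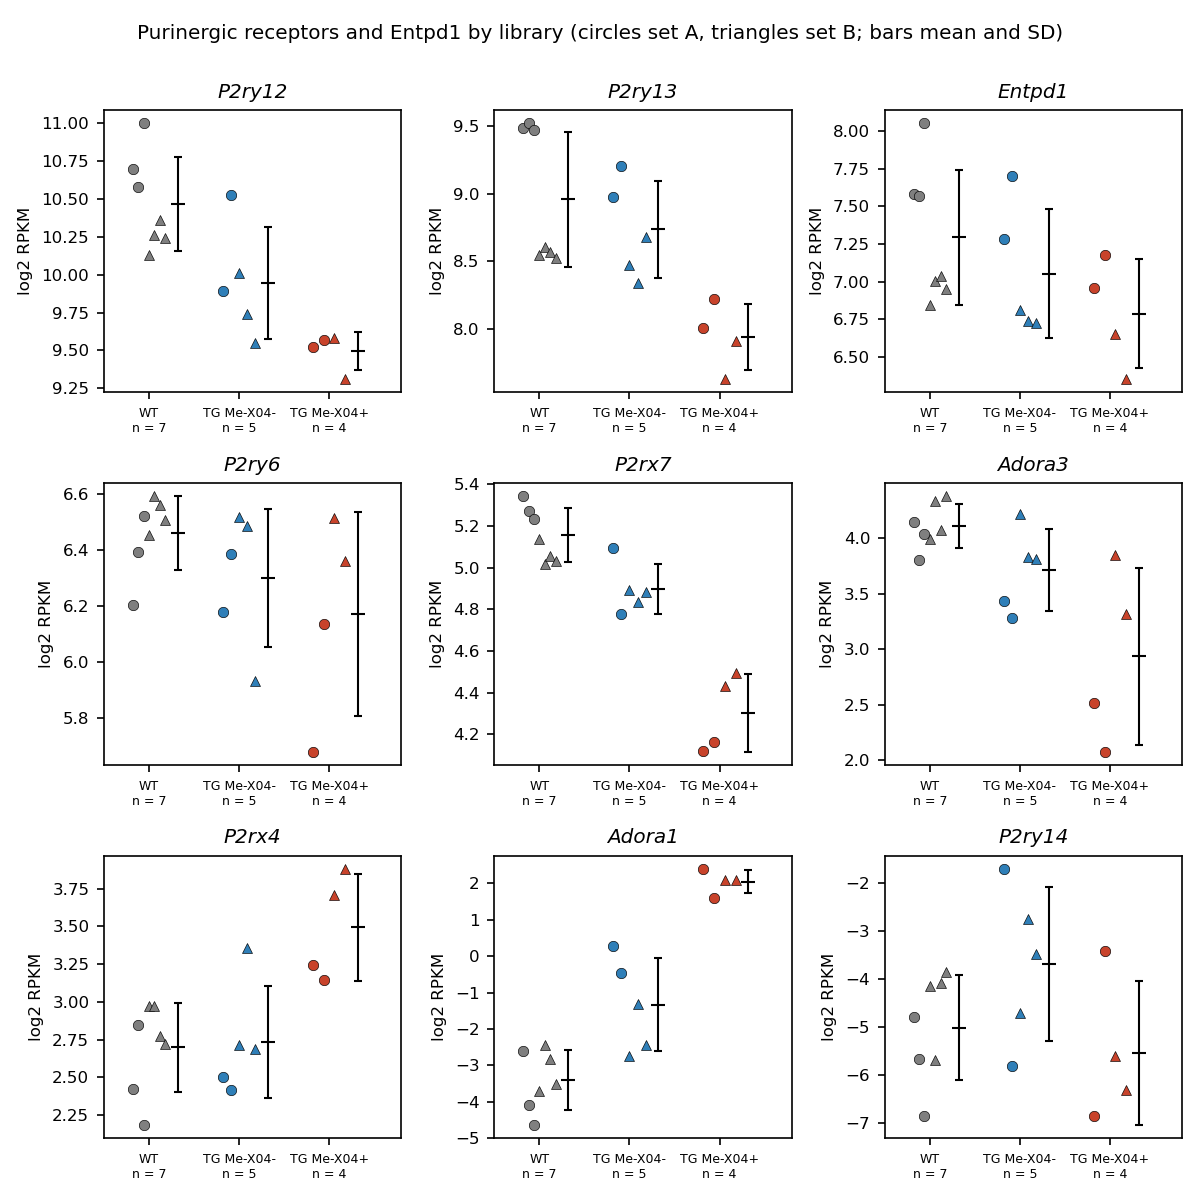
Level of each member in every library (log2 RPKM, own scale in each panel) by group (WT in grey, TG Me-X04- in blue, TG Me-X04+ in red). Circles are set A and triangles set B, and bars give the mean and SD. Adora1 was highest in the 4 TG Me-X04+ libraries (1.61 to 2.40), and P2rx7 was lowest in them (4.12 to 4.50).

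Between Me-X04+ and Me-X04- microglia of TG mice, 1 of the 9 members was DE, the adenosine A1 receptor Adora1, which was higher. Of all genes 5.49% were DE in this comparison, 3.44% higher and 2.06% lower, and 1 of 9 members is too few to be read against that background. For 3 members, Adora1, P2rx7 and P2ry13, the values of the 2 groups lay apart without overlap, as they did for 7.93% of all genes. The median log2FC of the members was -0.45, against -0.09 over all genes. With the animal label as a random block (consensus correlation 0.386), 4 members were DE, Adora1 and P2rx4 higher and P2ry13 and Adora3 lower, beside 11.8% of all genes. TG libraries of the same animal label also share a library set. This fit had no term for the sets, so animal and set cannot be told apart in it. With quantile normalization 6 members were DE, Adora1 higher and P2ry6, P2ry12, P2ry13, P2rx7 and Entpd1 lower, beside 4.61% of all genes.

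Between TG Me-X04- and WT microglia, no member was DE, and 0.201% of all genes were. At an unadjusted limma p under 0.05 there were 2 members, P2ry12 and Adora1, beside 5.18% of all genes. No member separated the 2 groups without overlap, beside 1.06% of all genes.

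Between TG Me-X04+ and WT microglia, 6 of the 9 members were DE. Adora1 and P2rx4 were higher, and P2ry12, P2ry13, P2rx7 and Adora3 were lower. The background was 14.3% of all genes DE, 8.25% higher and 6.02% lower. The groups did not overlap for 5 members, namely P2ry12, P2ry13, P2rx4, P2rx7 and Adora1, beside 10.5% of all genes. The median log2FC was -0.53 for the members and -0.11 over all genes. The comparisons share groups, and their values are set side by side below without being taken as support for each other. RNA from bulk sorted cells cannot tell fewer cells expressing a gene from less RNA per cell. The labels give each library of a group its own animal number, and p-values measure the spread between these libraries.

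**Figure D2:**
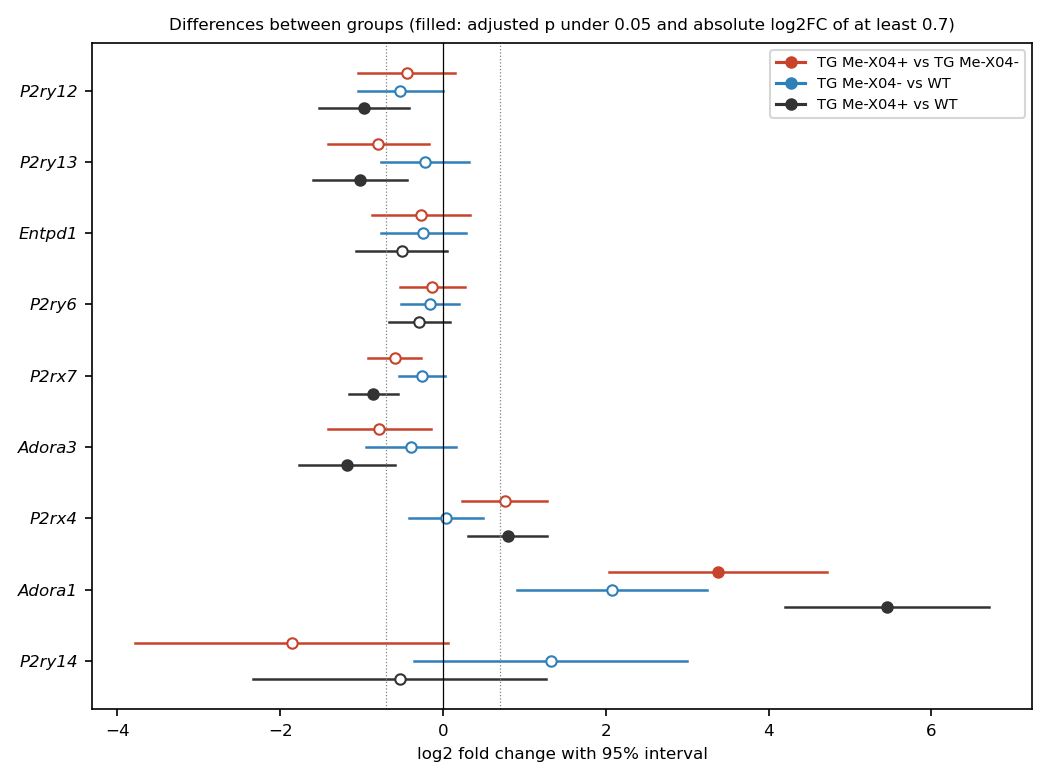
log2 fold change of each member with its 95% interval in the 3 comparisons, members ordered by their WT level. Filled points were DE and dotted lines mark the fold threshold of 0.7. Adora1 had the largest values (3.38, 2.08 and 5.46), and the intervals of P2ry14 were the widest.

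The ADP receptor P2ry12 was highest in WT, lower in TG Me-X04- and lowest in TG Me-X04+ microglia. Its level in WT libraries ran from 10.13 to 11.00 log2 RPKM with a median of 10.36. TG Me-X04- libraries 1 to 5 had 9.89, 10.52, 10.01, 9.74 and 9.55, and TG Me-X04+ libraries 1 to 4 had 9.52, 9.57, 9.58 and 9.31. All 4 TG Me-X04+ libraries lay below every WT library, and the TG Me-X04- libraries overlapped both groups. TG Me-X04+ was lower than WT by a log2FC of -0.97 ± 0.26 (SE), 1.96-fold, with a limma adjusted p of 0.0185. Without TG Me-X04+ replicate 4 the adjusted p was 0.054. The difference of TG Me-X04- from WT was -0.52 ± 0.25 (unadjusted limma p 0.0488, adjusted 0.964), and that between the TG groups was -0.45 ± 0.28 (adjusted p 0.431). The latter was called with quantile normalization (-1.36, adjusted p 0.00663) and after scaling to non-mitochondrial reads (-0.84, adjusted p 0.0414). Within set A the TG Me-X04- mean was lower than the WT mean by 0.55 and within set B by 0.48 on the log2 scale, with no overlap of the groups inside either set. No share of all genes is given for such separation. Platelets also carry P2ry12. The 1 platelet marker measured, Gp9, ranged from 3.18 to 32.9 RPKM in WT, 1.99 to 15.2 in TG Me-X04- and 0.200 to 7.50 in TG Me-X04+ libraries, while P2ry12 averaged 1442, 1011 and 723.8 RPKM. The part of platelets in the P2ry12 values was not tested.

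P2ry13, a second ADP receptor, was lower in TG Me-X04+ microglia than in either other group. WT libraries ranged from 8.53 to 9.53 log2 RPKM with a median of 8.60. TG Me-X04- libraries had 8.98, 9.21, 8.47, 8.34 and 8.68, and TG Me-X04+ libraries had 8.01, 8.22, 7.63 and 7.91. The TG Me-X04+ libraries overlapped neither group. The difference from WT was -1.02 ± 0.27 (2.03-fold lower, adjusted p 0.0175, and 0.0574 without TG Me-X04+ replicate 3). The difference from TG Me-X04- was -0.80 ± 0.29 and was not called (adjusted p 0.137), but it was with the animal block (-0.80, adjusted p 0.0279), with quantile normalization (-1.51, adjusted p 0.00106) and after scaling to non-mitochondrial reads (-1.19, adjusted p 0.00695). P2ry13 was split by library set in WT, at 9.47 to 9.53 in set A and 8.53 to 8.60 in set B. Inside each set TG Me-X04+ stayed below TG Me-X04-, by 0.98 in set A and 0.73 in set B.

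P2ry6, the UDP receptor, was not DE on the deposited values. It ranged from 6.20 to 6.59 log2 RPKM in WT, 5.93 to 6.52 in TG Me-X04- and 5.68 to 6.52 in TG Me-X04+ libraries, so all groups overlapped. The 95% interval of its log2FC ran from -0.53 to 0.28 between the TG groups and from -0.67 to 0.09 between TG Me-X04+ and WT, and the limma adjusted p was 0.782 and 0.323. With quantile normalization it was called lower in both comparisons (-0.70, adjusted p 0.0464, and -0.86, adjusted p 0.00342). P2ry14, the UDP-glucose receptor, was barely detected, with 0 to 16 reads in WT, 2 to 54 in TG Me-X04- and 0 to 14 in TG Me-X04+ libraries. Its log2FC of -1.86 between the TG groups had a 95% interval from -3.78 to 0.07 (adjusted p 0.29), so a change could not be told from none at this depth.

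P2ry12, P2ry13 and P2ry14 lie next to each other on chromosome 3 of GRCm38 (Gencode M21). P2ry12 spans chr3:59216272-59262871, P2ry13 chr3:59207892-59210882 and P2ry14 chr3:59113855-59153618, all on the minus strand, inside the plus-strand gene Med12l (chr3:59005825-59318682). P2ry13 ends 5390 bases from P2ry12. Whether the counting used strand is not given in the sources used here, so antisense reads could mix, but only 9 bases (0.353%) of the P2ry12 exons and none of the P2ry13 or P2ry14 exons were shared with Med12l exons. Med12l itself had a log2FC of -0.21 between the TG groups and -0.65 between TG Me-X04+ and WT (adjusted p 0.737 and 0.0965). Within each library P2ry12 exceeded P2ry13 by 1.05 to 1.79 log2 units in WT, 0.86 to 1.54 in TG Me-X04- and 1.35 to 1.95 in TG Me-X04+ microglia, with the groups overlapping.

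**Figure D3:**
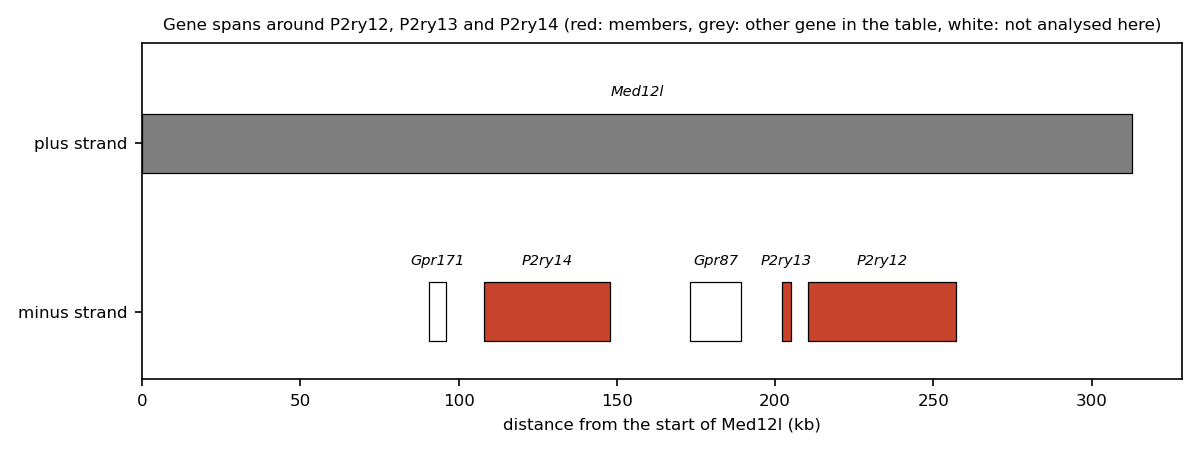
Gene spans around P2ry12, P2ry13 and P2ry14 by strand, as distance in kb from the start of Med12l. Red bars are members, grey is Med12l and white are genes not analysed here. The 3 members lie on the minus strand inside the 312.9 kb span of Med12l.

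The ATP-gated channels moved in opposite directions. P2rx7, the low-affinity channel, fell, and P2rx4, the high-affinity channel that is found largely in lysosomes, rose in TG Me-X04+ against WT microglia. P2rx7 ranged from 5.02 to 5.34 log2 RPKM in WT with a median of 5.14. TG Me-X04- libraries had 5.09, 4.78, 4.89, 4.83 and 4.88, and TG Me-X04+ libraries had 4.12, 4.16, 4.43 and 4.50. The TG Me-X04+ libraries lay below all others. The difference from WT was -0.86 ± 0.14 (1.81-fold lower, limma adjusted p 0.000499). The difference from TG Me-X04- was -0.59 ± 0.15 with an adjusted p of 0.0305, which passed the p threshold but was under the fold threshold. It was called with quantile normalization (-0.90, adjusted p 0.00431) and after scaling to non-mitochondrial reads (-0.99, adjusted p 0.00565). Within set A the difference from WT was -1.14 and within set B -0.60, so it was under the fold threshold in set B alone (adjusted p 0.00413), as it was with library weights (-0.68, adjusted p 0.00215).

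P2rx4 ranged from 2.18 to 2.97 log2 RPKM in WT with a median of 2.77. TG Me-X04- libraries had 2.50, 2.42, 2.71, 3.35 and 2.69, and TG Me-X04+ libraries had 3.24, 3.15, 3.71 and 3.88. The TG Me-X04+ libraries were above all WT libraries and overlapped only TG Me-X04- replicate 4. P2rx4 rose by 0.80 ± 0.23 against WT (1.74-fold, limma adjusted p 0.0265). The call was lost without TG Me-X04+ replicate 3 (adjusted p 0.0739) or 4 (0.0871), with quantile normalization (0.0609), with scaling by reads outside mitochondrial genes (0.255) and in set A alone (0.209). Against TG Me-X04- the log2FC was 0.76 ± 0.25 and was not called (adjusted p 0.0856), except with the animal block (0.76, adjusted p 0.0138) and without TG Me-X04- replicate 4 (0.92, adjusted p 0.0457), among other alternatives. In both sets every TG Me-X04+ library was above every TG Me-X04- library of that set, with 2 TG Me-X04+ libraries in each set.

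P2rx7 (chr5:122643911-122691432) and P2rx4 (chr5:122707544-122729738) are neighbours on the plus strand, 16112 bases apart. The difference P2rx4 minus P2rx7 within a library does not depend on how libraries are scaled. It ran from -3.05 to -2.04 log2 units in WT (median -2.31), from -2.59 to -1.48 in TG Me-X04- (median -2.19) and from -1.01 to -0.61 in TG Me-X04+ microglia (median -0.80). The TG Me-X04+ libraries overlapped neither other group. This pair was picked after the values were seen and is a description. The microRNA gene Mir8115 lies inside a P2rx7 exon and shares 119 bases (1.99% of the P2rx7 exon bases) on the same strand. It had 24 to 69 reads in TG Me-X04+ and 105 to 177 in TG Me-X04- libraries and was lower (log2FC -1.29, adjusted p 0.00283), and its reads cannot be told from those of P2rx7.

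**Figure D4:**
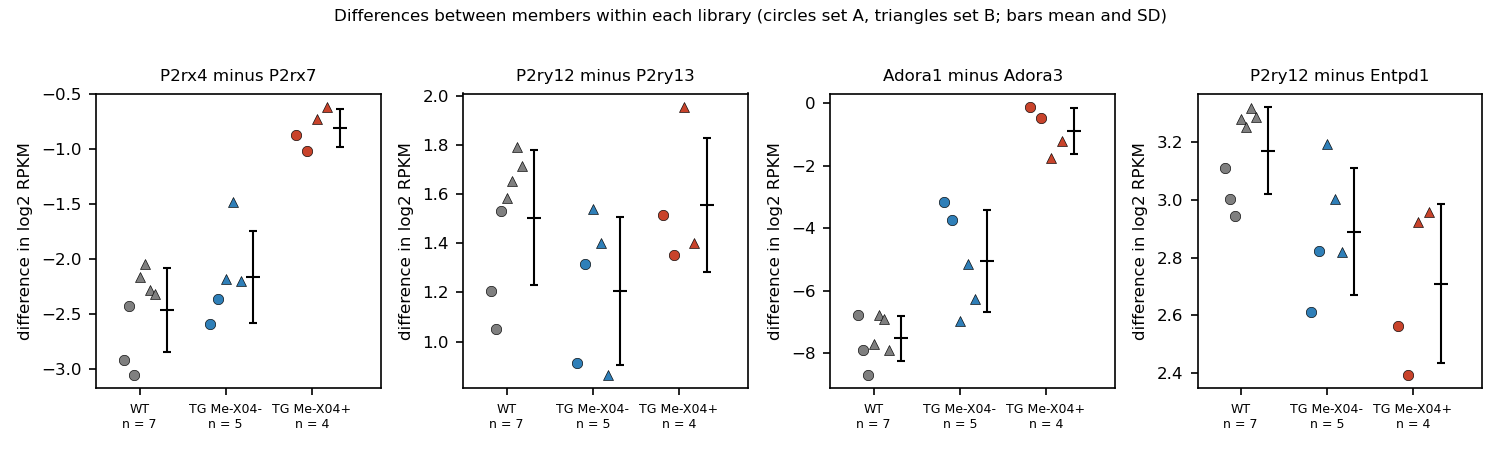
Difference in log2 RPKM between 2 members within each library, for 4 pairs, by group. Circles are set A, triangles set B, and bars the mean and SD. For P2rx4 minus P2rx7 the 4 TG Me-X04+ libraries lay between -1.01 and -0.61, above all other libraries.

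Entpd1, the ectonucleotidase that starts the breakdown of ATP, was not DE in any comparison on the deposited values. WT libraries ranged from 6.85 to 8.05 log2 RPKM with a median of 7.04, TG Me-X04- libraries had 7.28, 7.70, 6.81, 6.73 and 6.74, and TG Me-X04+ libraries had 6.96, 7.18, 6.65 and 6.35. All groups overlapped. The log2FC of TG Me-X04+ was -0.51 against WT (95% interval -1.07 to 0.05, limma adjusted p 0.228) and -0.27 against TG Me-X04- (-0.87 to 0.33, adjusted p 0.679). Against WT it was called lower with quantile normalization (-1.18, adjusted p 0.00037), after scaling to non-mitochondrial reads (-0.81, adjusted p 0.01) and with a block for the replicate number (-0.72, adjusted p 0.0431). Against TG Me-X04- it was called lower with quantile normalization (-0.90, adjusted p 0.0157). Within each of the 2 sets all TG Me-X04+ libraries were below all WT libraries, with means lower by 0.67 in set A and 0.46 in set B. Each set held only 2 TG Me-X04+ libraries, and no share of all genes is given for such separation. Entpd1 spans chr19:40612366-40741602 on the plus strand.

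Adora1, the adenosine A1 receptor, showed the largest change. In WT it was near the detection limit, at -4.65 to -2.43 log2 RPKM (median -3.50), which were 2 to 25 reads. TG Me-X04- libraries had 0.29, -0.46, -2.75, -1.30 and -2.43, from 21 to 115 reads. TG Me-X04+ libraries had 2.40, 1.61, 2.09 and 2.10, from 263 to 584 reads. The TG Me-X04+ libraries were above all others, and the 2 other groups overlapped. The log2FC of TG Me-X04+ was 3.38 ± 0.64 against TG Me-X04- (10.4-fold, limma adjusted p 0.00457) and 5.46 ± 0.59 against WT (44.0-fold, adjusted p 1.04e-05), with the WT side resting on very few reads. TG Me-X04- was above WT by 2.08 ± 0.55, which did not pass the adjustment (adjusted p 0.257, unadjusted p 0.0016).

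The intermediate level of Adora1 depended on the library set. In set A the TG Me-X04- mean was 3.71 log2 units above WT with no overlap, and in set B 0.96 with overlap. The step from TG Me-X04- to TG Me-X04+ was correspondingly 2.09 in set A and 4.26 in set B, and in set A alone it was not called (adjusted p 0.363). The difference between TG Me-X04+ and WT was 5.80 and 5.22, and its call was kept in all 24 alternatives run for it. Adora1 spans chr1:134199223-134235431 on the minus strand, and 1162 of its exon bases (20.1%) are shared with exons of Mybph on the plus strand. Whether the counting used strand is not given, so antisense reads could mix there too. Mybph was not DE, with a log2FC of 0.41 between the TG groups and 1.18 against WT (adjusted p 0.717 and 0.1). Disease-associated microglia markers moved in the same order as Adora1: their summed level over 8 genes was 13.3 to 35.1 RPKM in WT, 90.6 to 188 in TG Me-X04- and 1090 to 2080 in TG Me-X04+ libraries. Border macrophage markers ranged from 2.48 to 5.97, 1.74 to 6.88 and 2.76 to 20.8 RPKM, and the part of either group of cells in the Adora1 values was not tested. Neuronal markers (3 of 6 measured) summed to 0.106 to 0.489 RPKM in TG Me-X04+ libraries, with a median of 0.164, against 0.507 to 1.01 (median 0.685) in TG Me-X04- and 0.461 to 1.91 (median 0.865) in WT libraries, and their part was not tested.

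Adora3, the adenosine A3 receptor, was lower in TG Me-X04+ than in WT microglia. WT libraries ranged from 3.80 to 4.38 log2 RPKM with a median of 4.08. TG Me-X04- libraries had 3.44, 3.28, 4.22, 3.83 and 3.82, and TG Me-X04+ libraries had 2.52, 2.07, 3.85 and 3.31. Only TG Me-X04+ replicate 3 reached into the WT range. The difference from WT was -1.17 ± 0.28 (2.26-fold lower, limma adjusted p 0.00812). Set A gave -1.70 and set B -0.62, where it was not called (adjusted p 0.0506). The difference from TG Me-X04- was -0.78 ± 0.30, not called (adjusted p 0.156), and called with the animal block (-0.77, adjusted p 0.0298) and without TG Me-X04+ replicate 3 (-1.08, adjusted p 0.0326). Adora3 spans chr3:105870858-105908926 on the plus strand, and 779 of its exon bases (20.9%) belong also to exons of Tmigd3 on the same strand, so the reads of these genes are uncertain. Tmigd3 was lower too, at -1.49 against TG Me-X04- and -1.91 against WT (adjusted p 0.0237 and 0.000966).

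Adora1 minus Adora3 within a library ran from -8.69 to -6.77 log2 units in WT, -6.97 to -3.15 in TG Me-X04- and -1.76 to -0.12 in TG Me-X04+ microglia. In TG Me-X04+ microglia Adora1 thus came near the level of Adora3 per gene length, and the TG Me-X04+ libraries did not overlap the others. This difference restates the values of the 2 genes given above, mainly those of Adora1, and is a description. Its WT side rests on 2 to 25 reads of Adora1.

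The size of the differences depended on how libraries were scaled. Scaling by reads outside mitochondrial genes used summed reads, and so it also dropped the library sizes that the authors had scaled. TG Me-X04+ replicate 1 had 22430251 reads and a scaled size of 13218500, and WT replicate 4 had 18792701 and 22924300. The parts of these changes were not told apart. This scaling moves all genes of a library by about the same amount. With it the median log2FC of all genes went from -0.09 to -0.46 between the TG groups and from -0.11 to -0.39 between TG Me-X04+ and WT. Against that median the members keep their place by construction. Quantile normalization, which gives every library the same distribution of values, left the medians at -0.05 and -0.08 but changed the abundant members. Against WT the log2FC of P2ry12 went from -0.97 to -1.97 and that of P2ry13 from -1.02 to -1.78, and between the TG groups that of P2ry12 went from -0.45 to -1.36. Both were lower under each of these scalings.

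The other genes of the system were followed in lists for P2 receptors, ectonucleotidases, adenosine and nucleoside handling, nucleotide release and signalling partners, of which 46 of 75 genes were measured. Between the TG groups, 5 of the 46 were DE, beside 5.49% of all genes. Gnas, the stimulatory G protein α subunit through which A2 receptors signal, was higher (log2FC 2.23, limma adjusted p 0.00019), with 18234 to 27416 reads in TG Me-X04+ and 4826 to 7121 in TG Me-X04- libraries. Enpp1, which hydrolyses extracellular ATP to AMP, was also higher (1.44, adjusted p 0.0268). Ada, the deaminase that turns adenosine into inosine, was lower (-1.70, adjusted p 0.00304). Enpp4 (-1.90, adjusted p 0.021) and Entpd6 (-1.26, adjusted p 0.0288) were lower as well. With the animal block 9 of the 46 genes were DE, among them these 5, beside 11.8% of all genes. The median log2FC of the 46 genes was -0.29, against -0.09 over all genes.

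Between TG Me-X04+ and WT, 18 of the 46 genes were DE, 8 higher and 10 lower, beside 14.3% of all genes. Between TG Me-X04- and WT none was, beside 0.201% of all genes, and 7 had an unadjusted limma p under 0.05, beside 5.18%. Among ectonucleotidases, Enpp1 (2.12), Entpd5 (1.26) and Entpd7 (0.93) were higher and Enpp5 (-2.93), Enpp4 (-1.82) and Entpd6 (-1.50) lower, so 6 of 10 were DE, in both directions. Entpd5 and Entpd7 act mainly inside the cell. In adenosine and nucleoside handling Ada (-2.41) and the AMP deaminase Ampd3 (-1.42) were lower, and the salvage enzymes Hprt (1.13) and Dck (0.92) were higher, 4 of 11. Of 7 nucleotide release genes the volume-regulated channel subunits Lrrc8b (1.21) and Lrrc8d (1.04) were higher. Among 14 signalling partners Gnas was higher (2.83), and the arrestins Arrb1 (-0.90) and Arrb2 (-0.98), Gna15 (-0.96) and the PI3Kγ regulatory subunit Pik3r5 (-1.06) were lower. Of the 4 other P2 receptors measured, P2rx1 was lower (-2.95, adjusted p 0.00493), with 10 to 73 reads in the 7 WT libraries against 0 to 18 in TG Me-X04+ libraries. P2rx1 is a platelet receptor too. The log2FC of Gp9 was -2.20 against WT and -1.47 between the TG groups and was not called (adjusted p 0.109 and 0.443), and the part of platelets in the P2rx1 values was not tested.

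**Figure D5:**
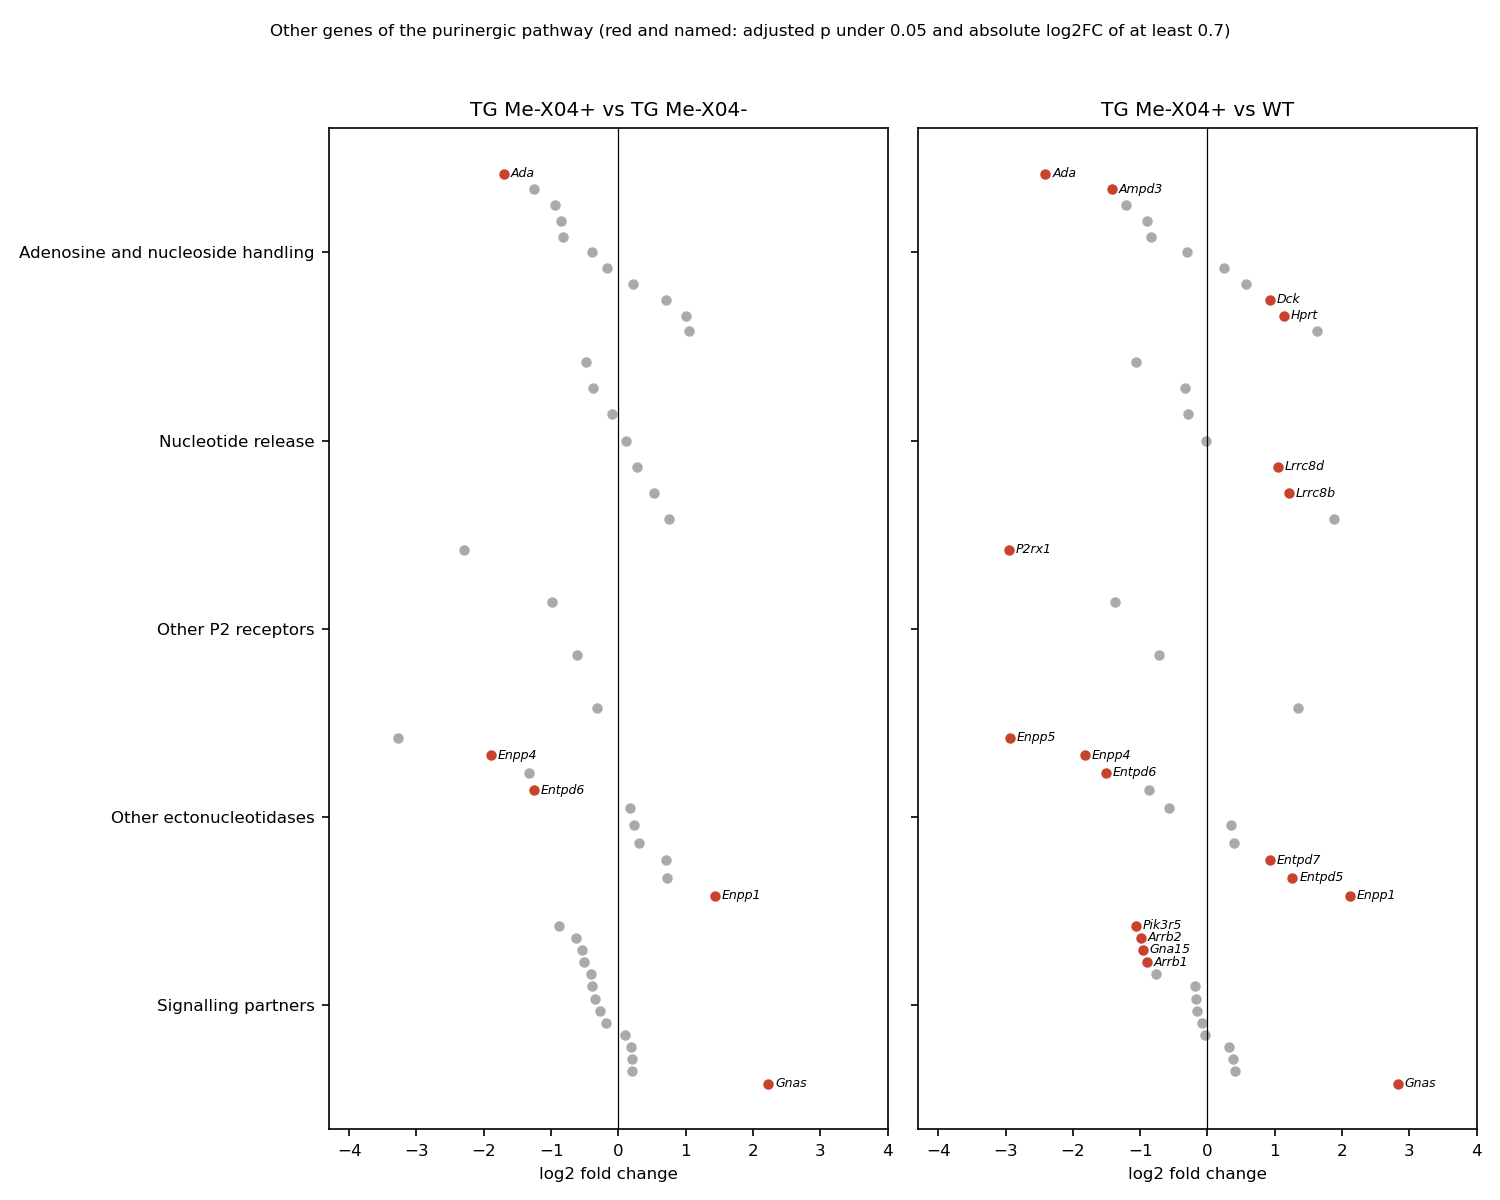
log2 fold change of the 46 other pathway genes by list, for TG Me-X04+ against TG Me-X04- (left) and against WT (right). Red points with names were DE and grey points were not. Gnas lay farthest to the right in both panels (2.23 and 2.83).

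In the lists, the highest and lowest log2FC between the TG groups that were not called were Hprt (1.05, adjusted p 0.119), Lrrc8d (0.75, adjusted p 0.188), Slc17a9, the vesicular nucleotide transporter (-0.48, adjusted p 0.631), P2ry2 (-0.31, adjusted p 0.902), P2rx1 (-2.30, adjusted p 0.0678), Enpp5 (-3.28, adjusted p 0.0503) and Gna11 (-0.88, adjusted p 0.461). Of the neighbours in the genome Igsf10 was highest (0.08) and Tmigd3 lowest. Of the genes whose span overlaps that of a member, the pseudogene Gm8783 inside Entpd1 shares no exon bases with it, and its log2FC was 0.57 between the TG groups (adjusted p 0.193).

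As a description over the 16 libraries, which share library set and depth, the genes whose log2 RPKM was most like that of P2ry12 were Casp8 (Pearson r 0.941), Cysltr1 (0.939) and Fgf11 (0.929). For Adora1 they were Wfdc17 (0.970), Arnt2 (0.961) and Mir7050 (0.953). After each group mean was removed, r for these genes was between 0.804 and 0.853 for P2ry12 and between 0.622 and 0.808 for Adora1, and Mir7050 had only 1 to 61 reads. Among the members, P2ry12 with Entpd1 had r 0.831 over all libraries and 0.891 after removal of the group means. For P2ry13 with Entpd1 r was 0.851 and 0.875, and for P2rx4 with Entpd1 -0.781 and -0.802. These pairs were picked from all pairs of members. Removal of the group means leaves the library sets in place. In WT, Entpd1 was 7.57 to 8.05 log2 RPKM in set A and 6.85 to 7.04 in set B. The part of the sets in these r values was not tested.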

How the data were processed

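The authors trimmed reads with Trim Galore 0.4.4, aligned them to GRCm38 with STAR 2.5.4b, counted them with featureCounts and normalised them with edgeR 3.24.3, per the labels' processing notes, and deposited log2 RPKM per library. The table also held columns of the authors' own comparisons (fold changes, p-values and scores), which were not used. No value column (0) was left without a sample. Values rose in whole-read steps (largest deviation 2.03e-07 reads), so reads could be recovered for depths and floors. Depth is given in the report, and intervals cover the spread between libraries only.

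The test was limma's (version 3.58.1, R 4.3.3) on the deposited log2 RPKM, two-sided, from 1 fit of the 3 groups with a trended prior variance and no covariate. The deposited values are log2 RPKM, so the quasi-likelihood test named in the study's methods was not run on them. An alternative was limma voom on the recovered reads, which called 1, 0 and 6 members in the 3 comparisons. No share of all genes is given for voom, so these counts cannot be read against a background. The test was checked on simulated data that were drawn without library sets and without shared animals, so the check does not cover these. Figures used matplotlib in Python. Annotation was Gencode M21 on GRCm38.

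The members and lists were chosen with earlier results of these data known. Every member was named, then every DE gene of the lists, the highest and lowest log2FC of each list between the TG groups, and the 3 genes most alike P2ry12 and Adora1. Pairing came from the animal labels: the deviations of same-numbered TG libraries correlated at 0.316 on average (0.292 to 0.329), against 0.272 for other numbers of the same set. Alternatives were other variance models, library weights, normalizations, pseudocounts, filters, replicate blocks, a term for the sets and each library left out in turn, and, chosen after seeing the data, each set alone.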

Additional observations from a re-analysis of the deposited data

How the results depend on the processing

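The number of DE members between the TG groups (1) became 6 with quantile normalization, 4 with scaling by reads outside mitochondrial genes, 0 with a filter at a mean log2 RPKM of 0 (which removed Adora1), 4 with the animal label as a random replicate block, 4 with a term for the 2 sets, 2 with no fold threshold, 0 in set A alone and 3 in set B alone, and it was 1 with the replicate number as a block. Leaving out 1 library gave 1 to 2: without TG Me-X04- replicate 4 P2rx4 was added, and without TG Me-X04+ replicate 3 Adora3 was. Between TG Me-X04+ and WT, it gave 4 to 6. The pathway count between the TG groups (5) became 9 with the mitochondrial scaling, 2 with only the groups compared, 9 with the animal block, 10 with the set term, 1 in set A and 9 in set B, and 2 to 6 when 1 library was left out (2 without TG Me-X04+ replicate 1 or 2, 3 without TG Me-X04- replicate 3, 4 or 5). Against WT (18) it became 11 with the replicate number as a block, 8 in set A and 10 to 17 with 1 library left out (10 without TG Me-X04+ replicate 2). Directions that reversed were of uncalled members: P2ry14 against WT (0.12 with quantile normalization, 0.64 in set A), P2rx4 between TG Me-X04- and WT (-0.025 in set A, -0.12 to 0.12 with 1 library left out, negative without WT replicate 1 or 3 or TG Me-X04- replicate 4), and P2ry6 between the TG groups (0.13 in set B, -0.24 to 0.037 with 1 library left out). The cause of these changes was not tested. Between the TG groups, 4.61% of all genes were DE with quantile normalization, 6.43% with the mitochondrial scaling and 11.8% with the animal block. For the other settings no share of all genes is given here. Their counts of members and pathway genes therefore cannot be read against a background. Of the member values under alternatives, 619 kept direction and side of the threshold, 11 lost their call, 22 gained one and 8 reversed. Depth limits P2ry14 and the WT level of Adora1.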
